A study of Mus musculus with 2 samples.

Results

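The genes described here encode the muscle acetylcholine receptor and the proteins that assemble it at the neuromuscular junction. They are the receptor subunit genes Chrna1, Chrnb1, Chrnd, Chrng and Chrne, the clustering genes Agrn, Musk, Dok7 and Rapsn, and Ache, the gene of acetylcholinesterase. These 10 genes, of 24421 in the table of counts, were selected on their known role and from the day 5 counts themselves, so every difference between the libraries below is a description and carries no test. All 10 were measured, which here means above 3 counts in 1 or both libraries. The RNA came from whole-layer skin of the back of wild type C57BL6/J mice, with 1 library of skin stretched for 5 days under a strain labelled 33% and 1 library of control skin kept for 5 days without strain. The methods describe female mice in the resting phase of the hair cycle, a stretching device glued to the back, and removal of the glued area at harvest. They give the strain as the initial one, with a further increase each day. Controls without a device are described for the study's comparison of strains, and the labels of these libraries do not say whether the same holds here. The number of mice in a library is not given in the sources used here. With 1 library per condition there is no replicate check, and stretch cannot be told apart from any other difference between the 2 pieces of skin.

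Mouse back skin carries a sheet of striated muscle, the panniculus carnosus, under the dermis and fat, and whole-layer skin includes it. The muscle acetylcholine receptor is a ring of 5 subunits that opens a cation channel when the motor nerve releases acetylcholine. It has a fetal form with the gamma subunit (Chrng), in developing, denervated and regenerating fibres, and an adult form in which the epsilon subunit (Chrne) takes the place of gamma. The nerve secretes agrin, which acts through Lrp4 and the kinase MuSK, with Dok7 as its activator, and rapsyn then holds the receptors together under the nerve ending. Acetylcholinesterase ends each signal by breaking down the transmitter.

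The control library held 14152379 counts and the stretched library 11648655, so 1 count stood for 0.0707 and 0.0858 CPM (counts scaled to a library total of 1000000). Levels of 1 gene were compared as CPM, the ratio of stretched to control skin is on the log2 scale, and each ratio carries an exact 95% interval (Clopper-Pearson) that covers counting error only. Of the 16255 measured genes, 6.32% were at least 2-fold higher and 5.47% at least 2-fold lower in stretched skin. The interval lay wholly above 0 for 18.1% of them and wholly below 0 for 33.5%. Their median log2 ratio was -0.12, a shift that TMM scaling nearly removed by adding 0.10 to every ratio. Counts on the 15 mature fibre genes, such as Ckm and Acta1, made up 2.99% of all control counts and 2.27% of all stretched counts, so striated muscle was present in both.

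The bases upstream of 4 of the genes are shown because muscle genes are known to be controlled near their start. The motifs were named after the ratios were seen, and their bearing on the ratios was not tested. E-boxes (CANNTG, the same on both strands), which bind myogenic factors such as MyoD and myogenin, are in capitals, as is the N-box (CCGGAA or its complement TTCCGG), which binds the GABP factor and is known for expression under the nerve ending. Each sequence is the 250 bases before the RefSeq start site on GRCm38.p6, read 5′ to 3′ on the gene's strand. The windows are chr1:87205561-87205810 for Chrng (plus strand), chr11:70619195-70619444 for Chrne (minus), chr2:73580339-73580588 for Chrna1 (minus) and chr4:58285712-58285961 for Musk (plus).
Chrng: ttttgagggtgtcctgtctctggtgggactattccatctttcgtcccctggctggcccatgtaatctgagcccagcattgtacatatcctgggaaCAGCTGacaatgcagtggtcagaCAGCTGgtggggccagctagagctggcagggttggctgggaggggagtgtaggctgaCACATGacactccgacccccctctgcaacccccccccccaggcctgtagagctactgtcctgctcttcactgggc
Chrne: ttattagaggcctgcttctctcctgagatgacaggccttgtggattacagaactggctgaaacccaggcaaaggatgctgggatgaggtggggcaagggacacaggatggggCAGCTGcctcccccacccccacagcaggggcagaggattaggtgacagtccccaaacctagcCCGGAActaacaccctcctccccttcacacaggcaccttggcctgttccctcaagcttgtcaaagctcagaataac
Chrna1: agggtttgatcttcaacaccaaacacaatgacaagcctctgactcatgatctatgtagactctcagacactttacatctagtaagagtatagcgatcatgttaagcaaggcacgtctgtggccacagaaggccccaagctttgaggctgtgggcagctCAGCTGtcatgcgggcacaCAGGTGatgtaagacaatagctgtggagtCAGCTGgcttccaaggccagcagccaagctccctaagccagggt
Musk: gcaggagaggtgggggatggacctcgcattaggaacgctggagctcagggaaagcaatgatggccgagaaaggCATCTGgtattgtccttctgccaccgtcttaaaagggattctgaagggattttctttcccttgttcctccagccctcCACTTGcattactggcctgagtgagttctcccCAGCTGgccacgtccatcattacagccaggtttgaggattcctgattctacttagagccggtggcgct

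The gamma window held 3 E-boxes, of which 2 had the CAGCTG core, at positions -155 and -132, counted back from the start site. The epsilon window held 1 E-box, also CAGCTG, at position -138, and 1 N-box at -76. The Chrna1 window held 3 E-boxes, 2 of them CAGCTG, and the Musk window held 3 with 1 CAGCTG. Chrnb1 had 3 E-boxes and no CAGCTG in its window. Sequences were found for 8 of the 10 genes, and none for Chrnd and Rapsn, whose windows were thus not searched. Of these 8, only Chrng, Chrne, Chrna1 and Musk held CAGCTG, while only Chrne held an N-box. Over all 32851 windows of this length, 66.2% held CANNTG, 13.0% CAGCTG, 1.26% at least 2 CAGCTG and 12% an N-box. A match is a string of letters and not a site of binding, and GENCODE also holds a longer Chrng transcript that starts upstream, at position 87204657 of chromosome 1.

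The 5 receptor subunit genes were all higher in stretched skin by value. For 4 of them the counting interval lay above 0, as it did for 18.1% of all measured genes. The order of the ratios was Chrng, Chrnd, Chrna1, Chrnb1 and Chrne. Of all 10 genes, Chrng, Chrnd, Chrna1 and Musk were at least 2-fold higher and 0 were 2-fold lower, beside 6.32% and 5.47% of measured genes. The lowest of these 4 was Musk (log2 ratio 2.17), and the gene just outside the threshold was Chrnb1 (0.96), which passed it with every other scaling tried. The methods set aside genes whose FPKM values in the compared samples multiply to 10 or less. With that filter on the FPKM computed here, Chrna1 (product 17.3) was the only 1 of the 10 that remained at least 2-fold higher, as were 2.94% of the 9684 genes that passed it. Chrnd (1.89), Chrng (0.323) and Musk (0.265) were below it. With 1 added to each FPKM value, Chrna1 was again the only one, beside 2.61% of 10910 genes.

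**Figure D1:**
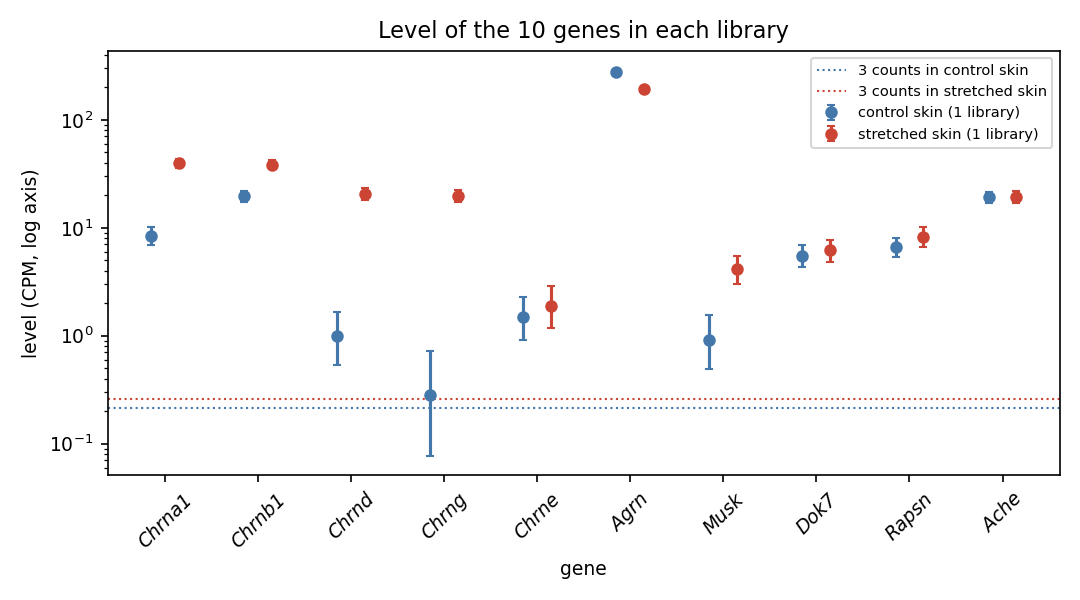
Level of each of the 10 genes in CPM (vertical log axis) in control skin (blue) and stretched skin (red), 1 library each, with exact 95% Poisson intervals, and dotted lines at the level of 3 counts. The bars of Chrna1, Chrnb1, Chrnd, Chrng and Musk are apart, those of Chrne, Dok7, Rapsn and Ache overlap, and Agrn is lower in stretched skin.

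Chrng, which encodes the fetal gamma subunit (ENSMUSG00000026253, chromosome 1 of mm10 from 87204657 to 87212694, plus strand), had 4 counts in the control library and 231 in the stretched one. These were 0.283 and 19.8 CPM, a log2 ratio of 6.13 (interval 4.76 to 8.02). With counts of 3 or fewer set to 3, only 2 of all measured genes had a ratio this high, Myh3 and Chrng. The 4 control counts were barely above the level of 3 counts, so the ratio is known only within a range of 27.0-fold to 259.7-fold, and it was 4.02 with 1 CPM added to both values.

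Chrnd, the gene of the delta subunit (ENSMUSG00000026251), lies just before Chrng on the same strand, from 87190607 to 87200070, with 4587 bases between them. It had 14 counts in the control library and 240 in the stretched one, or 0.989 and 20.6 CPM. The log2 ratio was 4.38 (interval 3.61 to 5.27), the 13th highest of all measured genes. On the far side of Chrng, Eif4e2, 1220 bases away, had 909 and 834 counts, a much smaller ratio (0.16, interval 0.02 to 0.29). Prss56, next to Chrnd, had 0 and 2 counts, too few for a ratio.

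Chrna1 encodes the alpha subunit, which carries most of the acetylcholine binding site (ENSMUSG00000027107, chromosome 2 from 73563215 to 73580338, minus strand). It had 119 counts in the control library and 461 in the stretched one, or 8.41 and 39.6 CPM, a log2 ratio of 2.23 (interval 1.94 to 2.54). Chrnb1, the beta subunit gene (ENSMUSG00000041189, chromosome 11 from 69784036 to 69795943, minus strand), had the most counts of the 5 in control skin. Its 278 and 446 counts were 19.6 and 38.3 CPM, a log2 ratio of 0.96 (interval 0.74 to 1.18). In contrast, Chrne, which encodes the adult epsilon subunit (ENSMUSG00000014609, chromosome 11 from 70614883 to 70619216, minus strand), had 21 counts in the control library and 22 in the stretched one. Its levels of 1.48 and 1.89 CPM gave a ratio of 0.35, and the interval from -0.58 to 1.28 holds both a fall and a 2-fold rise. No difference of Chrne was detectable at this depth.

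**Figure D2:**
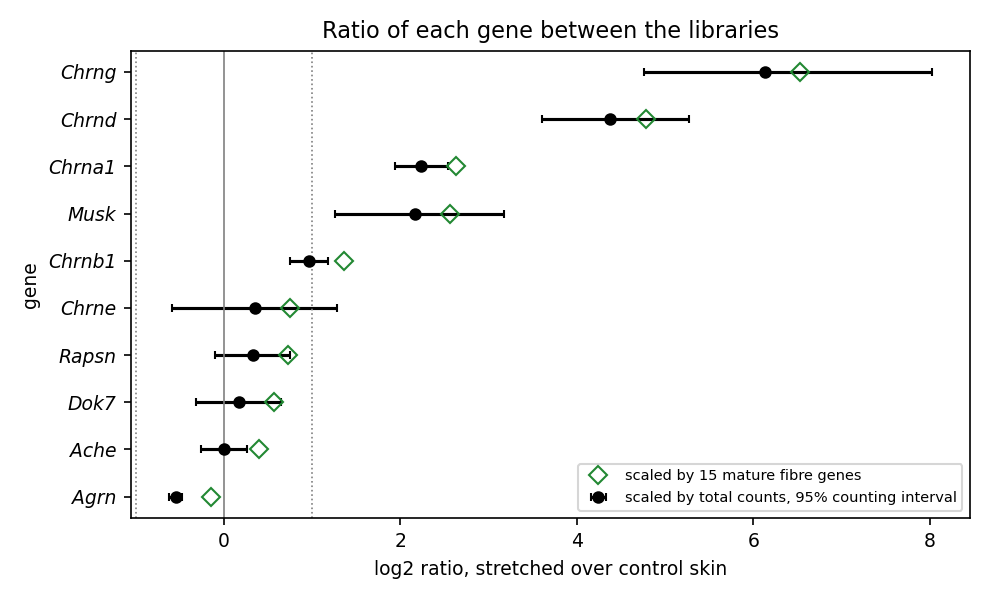
Log2 ratio of stretched over control skin for each gene, scaled by total counts with its 95% counting interval (black) and scaled by the counts of 15 mature fibre genes (green, no interval), with dotted lines at 2-fold. Chrng is at 6.13, Chrnd at 4.38, Chrna1 at 2.23 and Musk at 2.17, whereas the intervals of Chrne, Rapsn, Dok7 and Ache include 0.

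The fetal and adult subunits were compared within each library, where the scaling of the libraries does not enter. Within the control library 4 of the 25 counts on the pair were on Chrng, a share of 16.0% (exact 95% interval 4.54% to 36.1%). Within the stretched library 231 of 253 were on Chrng, a share of 91.3% (interval 87.1% to 94.5%). The adult subunit thus held most of the counts of the pair in control skin and the fetal subunit most of them in stretched skin. The ratio of Chrng to Chrne was 5.78 higher on the log2 scale in stretched skin (exact interval of the odds ratio 4.01 to 7.87). Per kilobase of exon the Chrng share went from 7.18% in the control to 81.0% in the stretched library.

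Set against Chrnd, which belongs to both receptor forms, the 2 subunits went opposite ways. The count ratio of Chrng to Chrnd was 0.286 in the control and 0.963 in the stretched library, 1.75 higher on the log2 scale (interval 0.05 to 3.83). Chrne had more counts than Chrnd in control skin (21 against 14) and fewer in stretched skin (22 against 240), a log2 difference of their ratio of -4.03 (interval -5.31 to -2.76). Chrnd also gained on Chrna1 by 2.15 (interval 1.30 to 3.09) and on Chrnb1 by 3.42 (interval 2.60 to 4.34).

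Levels of different genes were compared per length, as FPKM over all exons of a gene. In control skin the order was Chrnb1 (7.76), Chrna1 (1.92), Chrne (0.878), Chrnd (0.301) and Chrng (0.0679), of which the last 3 rested on 21, 14 and 4 counts. In stretched skin it was Chrnb1 (15.1), Chrna1 (9.02), Chrnd (6.27), Chrng (4.76) and Chrne (1.12). Epsilon thus moved from the third place to the last. Chrnb1 made up 71.0% of the summed level of the 5 genes in the control and 41.7% in the stretched library. The order of Chrnd and Chrng in stretched skin turned with the length of the longest transcript, where Chrng was at 7.13 and Chrnd at 6.99 FPKM.

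**Figure D3:**
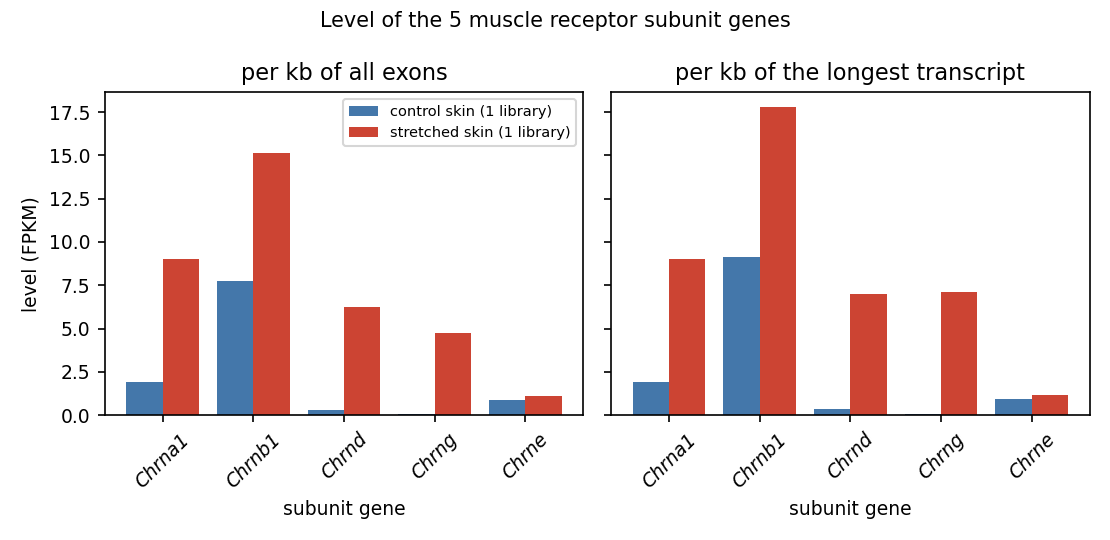
Level of the 5 subunit genes in FPKM (bars from 0) in control (blue) and stretched skin (red), 1 library each, per kilobase of all exons (left) and of the longest transcript (right). Chrnb1 is the highest in both libraries, and Chrnd and Chrng are near 0 in control skin only, while Chrne is low in both.

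The genes that cluster the receptor went different ways. Musk, the receptor kinase that starts clustering (ENSMUSG00000057280, chromosome 4 from 58285960 to 58374303, plus strand), had 13 counts in the control library and 48 in the stretched one. Its levels were 0.919 and 4.12 CPM, a log2 ratio of 2.17 (interval 1.26 to 3.17). Dok7, which binds and activates MuSK (ENSMUSG00000044716, chromosome 5 from 35056766 to 35087839, plus strand), had 78 and 72 counts, a ratio of 0.17 (interval -0.32 to 0.65). Rapsn, the gene of rapsyn (ENSMUSG00000002104, chromosome 2 from 91035620 to 91045729, plus strand), had 93 and 96 counts, a ratio of 0.33 (interval -0.10 to 0.75). The intervals of Dok7 and Rapsn ended below the lower bound of Musk.

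Agrn, the gene of agrin (ENSMUSG00000041936, chromosome 4 from 156165290 to 156197488, minus strand), was the only 1 of the 10 with an interval below 0. It had 3960 counts in the control library and 2232 in the stretched one, or 279.8 and 191.6 CPM, a log2 ratio of -0.55 (interval -0.62 to -0.47). Agrin is also a basement membrane protein outside the synapse, and Agrn had more counts in each library than the 9 other genes together. Its neighbour Isg15, an interferon response gene 1936 bases away, had 61 and 156 counts (1.64, interval 1.20 to 2.09). Ache (ENSMUSG00000023328, chromosome 5 from 137287519 to 137294466, plus strand) had 272 and 224 counts, or 19.2 CPM in both libraries, with a log2 ratio of 0.00077 and an interval from -0.26 to 0.26.

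**Figure D4:**
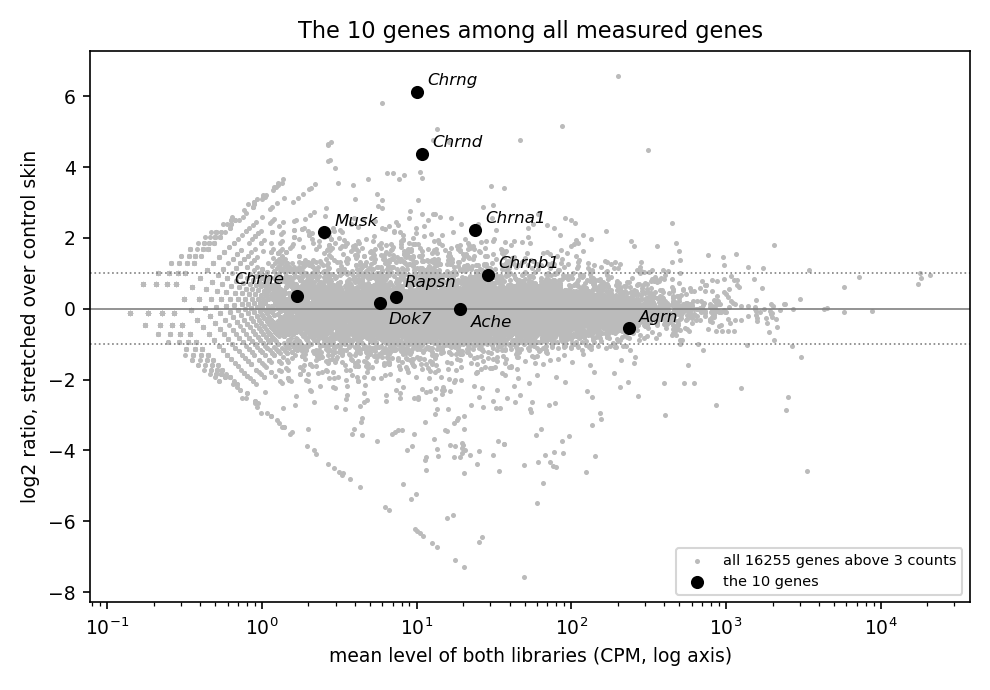
Log2 ratio of stretched over control skin against the mean level of both libraries (CPM, log axis) for the 16255 measured genes (grey, counts of 3 or fewer set to 3) and the 10 genes (black), with dotted lines at 2-fold. Chrng and Chrnd stand near the top edge, and 5 of the 10 genes lie between 0 and 1.

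In bulk RNA, fewer cells of a type and less RNA per cell cannot be told apart, so the same counts were also set against those of the muscle. The 15 mature fibre genes, which encode contractile, structural, calcium-handling and metabolic proteins, had a median log2 ratio of -0.48, with 12 intervals below 0 and 3 above. They did not move as one, and ran from Pvalb at -2.11, with Atp2a1 at -1.36 and Ckm at -1.05, to Des at 0.85 and Mb at 1.09. In CPM taken over the counts of these 15 genes alone, Chrng was at 9.44 in the control and 872.6 in the stretched library, and Chrne at 49.5 and 83.1. This scale adds 0.40 to every log2 ratio, which put Chrnb1 at 1.36, Ache at 0.40 and Agrn at -0.15. Of the 5 satellite cell markers, Cdh15 was higher (132 and 289 counts, 1.41), Megf10 was at 0.75 (interval 0.15 to 1.36), the intervals of Pax7 and Chodl included 0, and Calcr had at most 2 counts. The 10 Schwann cell markers had a median of 0.19, with 3 intervals above 0 and 0 below. The 6 macrophage markers were all higher (median 1.31, with Fcgr1 at 2.68, Adgre1 at 1.56, Cd68 at 1.47 and Csf1r at 1.15), and their summed level was 361.9 CPM in control and 790.6 CPM in stretched skin. The 6 keratinocyte markers had a median of 0.01, with 3 intervals above 0 and 2 below, and ran from Dsg3 at -0.79 to Krt14 at 0.28. The 6 endothelial markers had a median of 0.40, with 3 intervals above 0 and 1 below, and ran from Kdr at -0.37 to Vwf at 0.65. The part of these cell types in the ratios of the receptor genes was not tested.

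The other genes of the synapse went both ways. The 11 lists of partners held 86 genes, of which 75 were measured, with a median log2 ratio of -0.16 beside -0.12 over all measured genes. Of the 75, 8 were at least 2-fold higher and 4 at least 2-fold lower, beside 6.32% and 5.47% of all measured genes. The 10 partners of agrin and MuSK had a median of -0.23, with 7 intervals below 0 and 1 above. Lrp4, the gene of the agrin receptor, had 1381 counts in the control library and 712 in the stretched one (-0.67, interval -0.81 to -0.54). Both Agrn and Lrp4 were thus lower in stretched whole skin. The median of the agrin and MuSK list was 0.16 on the scale of fibre genes. Which cells of the skin gave the counts of Lrp4 and of the other genes in these lists was not tested. Of the neuregulin receptors, which also act at the synapse, Erbb2 was at -0.55 and Erbb3 at -0.67, Erbb4 had 1 count in each library, and the median of the 3 measured genes of that list was -0.55. The 8 scaffold genes under the postsynaptic membrane had a median of -0.17, and it was 0.23 on the fibre scale. Among them Utrn, the gene of utrophin, was at -0.11 and Dtna, the gene of alpha-dystrobrevin, at 0.62 (interval 0.42 to 0.83).

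In the synaptic basal lamina, Colq, whose collagen tail anchors acetylcholinesterase in the cleft, was higher in stretched skin, with 29 and 79 counts (1.73, interval 1.10 to 2.39). The ratio of the enzyme gene Ache was near 0. The 8 genes of this list had a median of 0.22 and ran down to Lama5 at -0.72. Of 5 genes that make, move or break down acetylcholine, 4 were measured, with a median of -0.06 that was above 0 under each of the 5 other scalings (0.0056 to 0.34). Chat, the synthesis enzyme, had 16 and 17 counts, and Slc5a7, the choline transporter, had 10 and 2, with an interval from -5.27 to 0.19. The 5 glycosylation genes that serve receptor assembly had a median of 0.26, and Gmppb (0.38) and Dpagt1 (0.38) had intervals above 0.

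The acetylcholine receptors of neurons and other cells were mostly at low counts. Of 11 neuronal nicotinic subunit genes, 7 were measured, 0 had an interval above 0, and the median was -0.30 (with the 1 count of Chrna7 set to 3). That median was -1.24 over the genes with at least 20 counts and 0.09 on the scale of fibre genes. Chrna4 had 48 counts in the control library and 8 in the stretched one (-2.30, interval -3.60 to -1.21), and Chrnb4 31 and 8 (-1.67, interval -3.01 to -0.52). The other 5 measured genes had intervals that included 0. Of the 5 muscarinic receptors only Chrm4 was above 3 counts, with 9 and 12 (0.70, interval -0.67 to 2.12). The 9 modulators and assembly factors of nicotinic receptors had a median of -0.30, and of 0.09 on the fibre scale. Lynx1, a membrane-bound modulator of nicotinic receptors, had 1172 and 545 counts (-0.82, interval -0.97 to -0.68). Lypd6b was the lowest at -0.94, while Ly6e, also an interferon response gene, had 2747 and 4618 (1.03, interval 0.96 to 1.10) and Psca 5 and 13.

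The 16 genes known to regulate receptor gene transcription in muscle had a median of 0.26 over the 15 measured, with 7 intervals above 0 and 3 below. The highest were Myog and Myod1, myogenic factors that bind E-boxes. Myog had 174 counts in the control library and 447 in the stretched one (1.64, interval 1.39 to 1.90), and Myod1 112 and 217 (1.24, interval 0.90 to 1.58). Myf6 was at 0.58 (interval 0.36 to 0.80), and Myf5, with 12 and 14 counts, had an interval that included 0. Of the subunits of the factor that binds the N-box, Gabpa was at -0.37 (interval -0.52 to -0.22) and Gabpb1 at -0.17, with an interval from -0.41 to 0.06 that includes 0. Etv5, an ETS factor of the synapse, was at -0.31. Dach2 and Hdac4 act in the response of receptor genes to nerve activity. Dach2 had 2 and 1 counts, and Hdac4 was at -0.32. Hdac9, a deacetylase of the same class, was at 0.72 (interval 0.30 to 1.15), and Runx1, a factor of denervated muscle, at 0.26 (interval 0.07 to 0.45).

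Other membrane proteins that differ between immature or denervated fibres and adult fibres also went both ways. Scn4a, the adult muscle sodium channel, had 867 and 371 counts (-0.94, interval -1.12 to -0.77). Clcn1, the adult chloride channel, had 282 and 103 (-1.17, interval -1.51 to -0.84). Both adult channels were thus lower in stretched skin. In contrast, Kcnn3, a potassium channel of denervated fibres, was at 1.06 (interval 0.43 to 1.70), and Ncam1, an adhesion molecule that spreads over denervated and regenerating fibres, at 1.88 (290 and 876 counts).

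**Figure D5:**
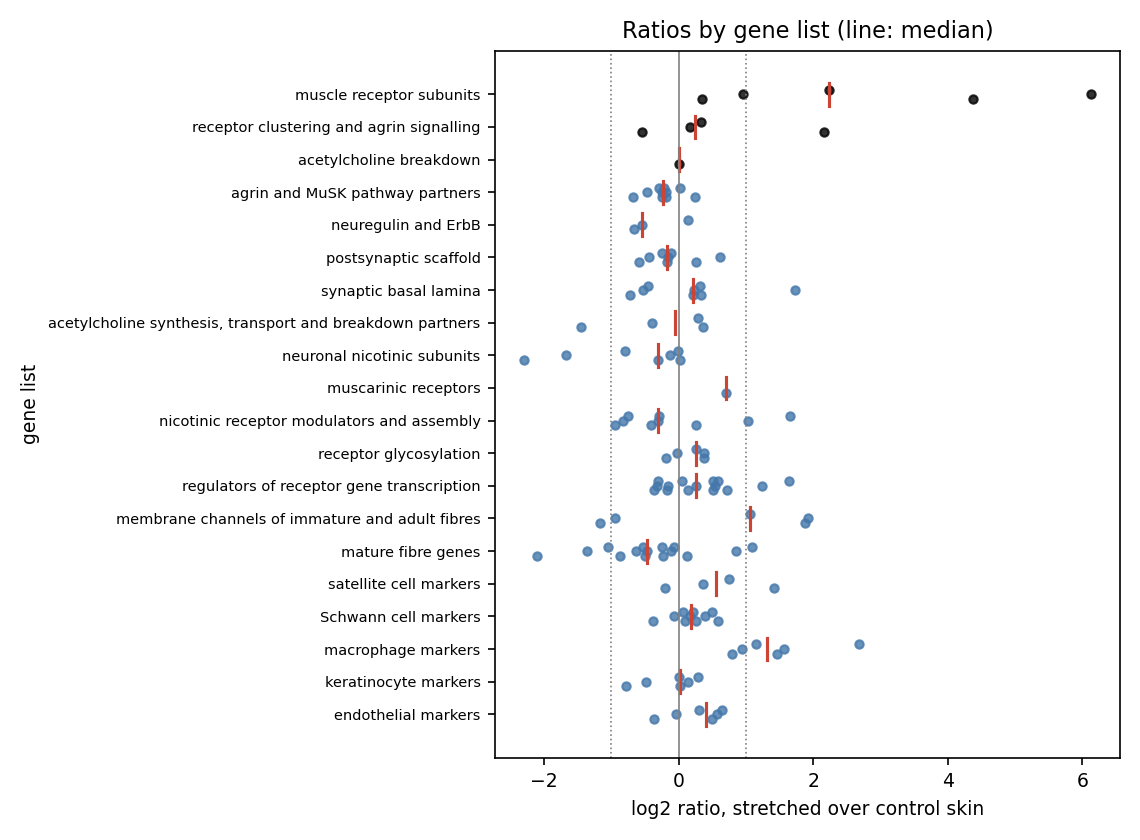
Log2 ratio of stretched over control skin for each measured gene, by list, for the 10 genes (black) and the other lists (blue), with a red line at each median and dotted lines at 2-fold. The receptor subunits reach 6.13, whereas no gene of the other lists shown passes 2.68, the value of Fcgr1 among the macrophage markers.

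The 5 genes with at least 100 counts whose log2 ratio lay nearest to that of Chrng, over these 2 libraries, were Hoxc10, Myh3, Myl4, Igfn1 and Tnni1. Myh3, the embryonic myosin heavy chain, had 59 and 4637 counts and lay 0.44 above Chrng. Myl4, an embryonic myosin light chain, lay 0.97 below it, Igfn1, expressed in muscle, 1.06 below, and Tnni1, the slow troponin I gene, 1.36 below. Hoxc10 had 0 counts in the control library and 139 in the stretched one. Its log2 ratio was 5.81 with the control set to 3 counts, and its counting interval starts at 5.50 and has no upper end. Its distance from Chrng is therefore not known.

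The counts of the 10 genes were also set against the gene models and their neighbours. The measured genes within 5 kb of Chrnb1, Dok7 and Ache were under 2-fold apart, with Zbtb4 at -0.03 and Fgf11 at 0.35 next to Chrnb1, Lrpap1 at 0.14 next to Dok7, and Ufsp1 at -0.25 and Srrt at -0.19 next to Ache. Overlap with the exons of other genes was 0 for all but Ache (2.1% of exonic bases) and Rapsn (0.2%). Of their 76-base stretches, Chrna1 shared 1.1% and Ache 0.5% with other genes, and the rest shared none. Chrne lies 400 bases from Mink1 (1820 and 1620 counts) and overlaps 4930544D05Rik (4 and 0 counts) outside its exons, both on the opposite strand, and the library kit does not mark strand.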

How the data were processed

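The 10 genes and the gene lists were chosen with earlier results of these data known. The authors deposited read counts per gene symbol, without normalization. Per the methods, reads went through the FASTX-Toolkit and then TopHat2 (genome mm10), the aligner and build that the submitters' processing notes also name. The FPKM values that the methods then take from Cufflinks were not used here. How the deposited counts were made is not given in the sources used here, and the kit does not mark strand. FPKM was computed from the deposited counts, total counts and GENCODE M21 exons, with a length for 98.4% of genes. In ratios, counts below 3 were raised to 3. There is no p-value, since each condition has 1 library.

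Named genes were the 10, Lrp4, Colq, any listed gene past 2-fold or needed for a list's range, genes within 5 kb, and the 5 nearest to Chrng in ratio. Other listed genes and the promoter motifs were named after their values were seen. Other scalings tried were the median of ratios from DESeq2 1.42.0, TMM from edgeR 4.0.16, the upper quartile of genes above 0, the total without the top 50 genes, and the summed counts of 15 mature fibre genes. Also tried were 1 CPM or 1 count added, at least 20 counts, and the filter of the methods on the product of FPKM, with and without 1 added to each value. Ratios and intervals were tested on simulated data. Python 3.11.15, scipy 1.17.1 and R 4.3.3 were used. Promoters are from RefSeq (GRCm38.p6). 1 gene of the lists is counted in the list totals and is not reported here.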

Additional observations from a re-analysis of the deposited data

How the results depend on the processing

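Of 60 values of the 10 genes under other scalings or with 1 CPM added, 51 stayed within their counting intervals, 9 moved and 0 changed sign. The 4 genes at 2-fold became 5 under each of the 5 scalings, with Chrnb1 added, and 1 with the filter of the methods on the product of FPKM, an alternative chosen after seeing the data, and 1 with that filter after 1 was added to each FPKM. Both set aside genes at low FPKM. With 1 CPM added to each value the change of Chrng relative to Chrne was 3.80 in place of 5.78, since this draws low values together. The Chrng share in stretched skin was 81.0% per kilobase of exon and 85.9% per kilobase of the longest transcript, in place of 91.3%. The median of the 10 genes was 0.66 and ranged from 0.61 to 1.05. Of 133 list medians under alternatives, 9 changed sign, in 5 lists. On the scale of fibre genes the partners of agrin and MuSK were at 0.16, the scaffold genes at 0.23, the neuronal nicotinic subunits and the modulators both at 0.09 and the acetylcholine partners at 0.34. The last list was also above 0 under the 4 other scalings. No paired analysis was possible because each condition was sequenced as a single library, which also leaves none to omit. Depth limits Chrng, Chrnd, Chrne and Musk most, with 4 to 21 counts in control skin.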
